A study of Malus domestica with 16 samples.

Results

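The apple microRNA precursor probes are 289 of the 133709 probes on an Agilent array of apple gene models. They were chosen by name alone, as every non-control probe whose name starts with Md_miR. Names that end in _r, 144 of them, read the sense strand of a precursor, and the same names without that ending, 145 of them, read the other strand. The number after miR gives the family, and 25 families were represented, from 1 sense probe in miR397 to 15 in miR169. Each member had 1 spot per array, none was saturated, and miR160f had a probe for the other strand only.

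Plant microRNAs are cut by Dicer-like enzymes from longer hairpin transcripts made by RNA polymerase II, and the short mature strand guides an Argonaute protein to messenger RNAs that carry a matching site. Many families are shared among flowering plants and act on transcription factors or hormone receptors, so that they are known for roles in organ growth, phase change, auxin signalling and stress. The RNA was amplified and labelled as long transcripts, so that the probes read the precursor transcripts and not the mature microRNAs. The target roles given here are those known from Arabidopsis.

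The RNA came from the peel of wild-type Granny Smith apples from a commercial orchard in northern Greece, harvested at maturity and then kept for 6 months at 0 °C. Control fruit received cold storage alone. The 1-MCP fruit were first exposed for 24 h to 1-methylcyclopropene, a gas that blocks ethylene perception, at 1000 ppm as the labels give it (the study's methods state a far lower dose), and the O3 fruit were stored in air enriched with ozone at 0.3 μL per L. The 1-MCP+O3 fruit received both. Each group had 2 RNA extracts, called A and B, each from the peel of 7 apples, and p-values reach no further than these extracts. They rest on the spread between the arrays of a comparison, which also holds differences of dye and hybridization.

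Of the 8 arrays, 2 served each of 4 comparisons, 1-MCP vs Control, O3 vs Control, 1-MCP+O3 vs Control and 1-MCP+O3 vs O3. The first-named group carried the green dye Cy3 on array A and the red dye Cy5 on array B, so that dye and extract letter cannot be told apart within a comparison. The 3 comparisons with Control used the same Control extracts, whereas 1-MCP vs Control and 1-MCP+O3 vs O3 had no extract in common. The share of an array's probes that the scanner software set well above background ran from 46.0% to 53.3% for Cy3 and from 34.3% to 41.6% for Cy5. The sense probe of AFS1, the alpha-farnesene synthase known from apple peel, was well above background in all 16 channels.

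Most precursor probes were dark in stored peel, which means not well above background in any channel. The scanner software marked 50 of the 144 sense members as well above background in at least 1 of the 16 channels, and only 10 in all 16. These are 34.7% and 6.94% of the sense members, against 74.6% and 41.9% of the 59352 sense probes of the whole array. The 10 were miR156e, miR156m, miR159e, miR160j, miR166a, miR168a, miR168b, miR171i, miR858a and miR858b. Another 12 sense members were above background in 8 to 15 channels and 28 in 1 to 7 channels. Of the 50, 21 were above background in Cy3 only and 1 in Cy5 only. Per array, 23 to 26 sense members were detected with Cy3 and 13 to 22 with Cy5 on the slide of 1-MCP vs Control and O3 vs Control, and 32 to 41 and 15 to 20 on the slide of the other comparisons.

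Detection differed between families. All sense members were detected in some channel in miR162, which acts on DCL1, the enzyme that cuts the hairpins (2 of 2 probes), in miR168, which acts on AGO1, the main Argonaute (3 of 3), in miR408, a regulator of copper proteins (2 of 2), and in miR858, which acts on MYB factors of phenylpropanoid synthesis (2 of 2). In miR160, a regulator of auxin response factors that act as repressors, 6 of 10 were detected, and in miR166, which acts on class III HD-ZIP factors of organ polarity, also 6 of 10. The SPL-directed family miR156, known for the juvenile to adult transition, had 7 of 14 detected, and the related families miR157 and miR535 had 1 of 4 and 2 of 4. The counts were 4 of 12 in miR159, which acts on GAMYB factors, 4 of 13 in miR171, which acts on GRAS factors of the SCL6 type, and 2 of 15 in miR169, which acts on NF-YA subunits, in no more than 1 channel each. The miR398 family, directed at copper/zinc superoxide dismutases, had 3 of 5 detected. A single sense member was detected in each of miR164, miR167, miR319, miR390, miR393 and miR394. Those of miR164 and miR319 were above background in 1 channel each, as was miR408a, and miR408c was in 2.

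No sense probe was above background in any channel in 6 families, which together hold 26 sense members. They were miR172, which acts on AP2 factors, the sulfate and phosphate starvation families miR395 and miR399, the GRF-directed miR396, the laccase-directed miR397 and the AGO2-directed miR403. The other strand was also dark in miR396 and miR403, whereas the other-strand probe of miR397b was above background in 10 channels and that of miR172d in 14.

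**Figure D1:**
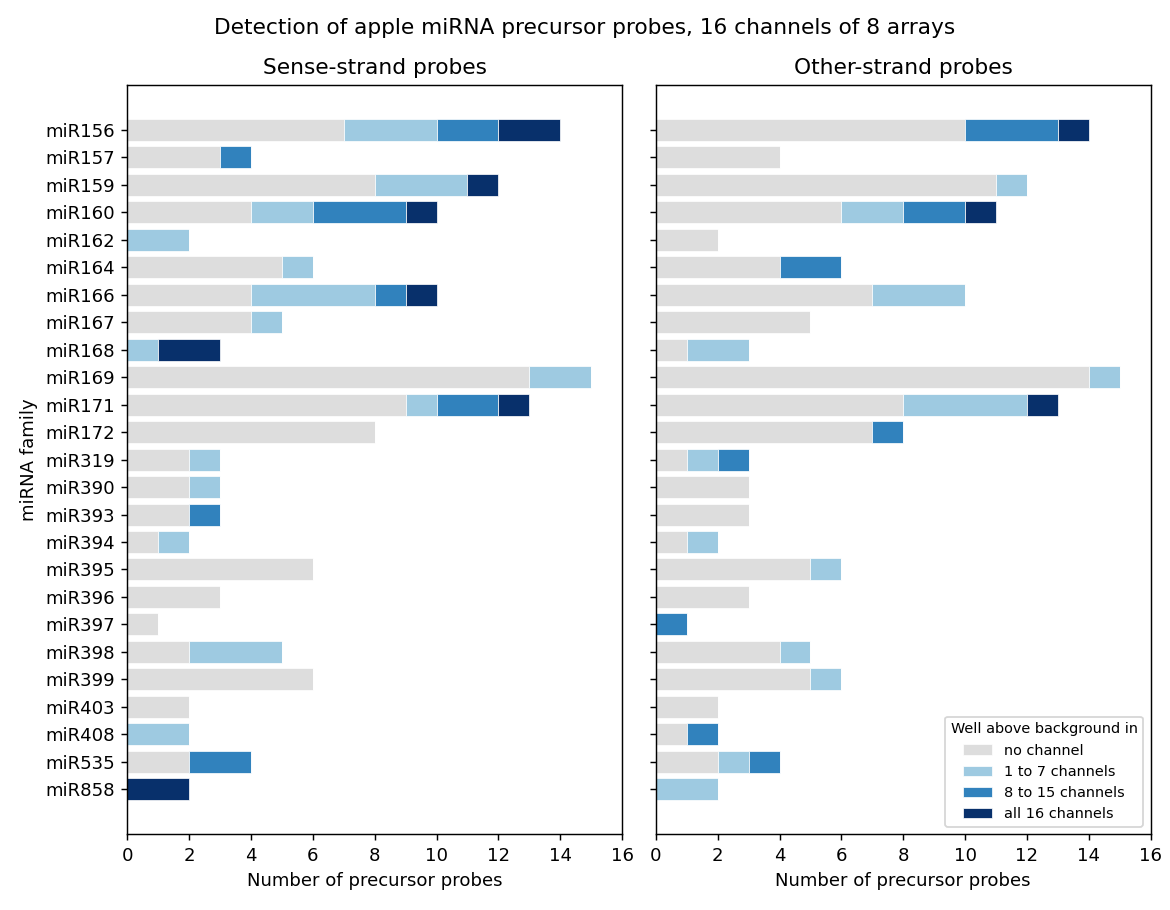
Number of precursor probes (x axis) of each miRNA family (y axis) by the number of the 16 array channels in which the probe was well above background, for the 144 sense probes (left) and the 145 other-strand probes (right). The darkest bars hold the 10 sense and 3 other-strand probes detected in every channel, and the grey bars the 94 and 109 probes detected in none.

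Few precursor probes passed the 1% test, which takes an unadjusted p under 0.01 in limma over the 2 arrays of a comparison. Among the 144 sense members, 1 passed in 1-MCP vs Control, which is 0.694%, where 4.62% of all sense probes passed. In O3 vs Control 0 passed, against 2.44% of all sense probes, and in 1-MCP+O3 vs Control 0 passed, against 3.61%. The comparison of 1-MCP+O3 with O3 again gave 1, against 3.09%. At an unadjusted p under 0.05, the 5% level, 8, 2, 6 and 5 of the 144 sense members passed in the same order, where 12.2%, 8.65%, 10.7% and 9.08% of all sense probes did. At a Benjamini-Hochberg adjusted p under 0.05 over all probes there were 0 in each, for the members and for all sense probes.

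The same counts were taken over probes detected with at least 1 dye on each array of a comparison. In 1-MCP vs Control this was 1 of 24 sense members, against 7.68% of all such sense probes. The other comparisons gave 0 of 24 for O3 vs Control (4.2% of all), 0 of 32 for 1-MCP+O3 vs Control (5.76%) and 1 of 32 for 1-MCP+O3 vs O3 (4.84%). The median log2 ratio of the 144 sense members lay between 0.002 and 0.015 in the 4 comparisons, beside -0.0043 to 0.0085 for all sense probes. Their median absolute log2 ratio was 0.0562, 0.0456, 0.0677 and 0.0606 in the order of the comparisons, below the 0.1067, 0.0857, 0.1193 and 0.1031 of all sense probes.

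The precursor of miR159e stood higher in all extracts of 1-MCP-treated fruit. After normalization its log2 intensity was 7.40 in Control A and 7.14 in Control B, and 7.36 and 7.29 in O3 A and B. It was 8.93 and 9.84 in 1-MCP A and B, and 9.16 and 9.78 in 1-MCP+O3 A and B. All 4 extracts with 1-MCP thus lay above all 4 without it, an order found in 7.06% of all sense probes, and the probe was above background in every channel.

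In 1-MCP+O3 vs O3 the log2 ratio of miR159e was 1.77 on array A and 2.04 on array B, a mean of 1.91 ± 0.20 (SD, n = 2) or 3.75-fold. This rise passed the 1% test but not the adjustment over all probes (adjusted p = 0.422 in limma). In 1-MCP vs Control the ratios were 1.37 and 2.77, with a mean of 2.07 ± 0.99 (adjusted p = 0.418). In 1-MCP+O3 vs Control the ratios were 1.60 and 3.09, with a mean of 2.34 ± 1.05 (adjusted p = 0.51). Both passed at 5% and not at 1% in this fit, and both passed at 1% in 8 of 12 alternatives, median centring and leaving out dim probes among them. With an intensity trend and robust options in limma their adjusted p was 0.00503 and 0.000103, and that of 1-MCP+O3 vs O3 was 0.0552. In that setting 2022, 1376 and 672 of all sense probes had an adjusted p under 0.05 in these comparisons. With O3 alone the ratios were 0.30 and 0.13 and passed at neither. The 1-MCP+O3 vs O3 value missed the 1% test when each array was centred on its median in place of loess and when either array was left out, but stayed within 5%. The other-strand probe of miR159e was above background in no channel, and so were 8 of the other 11 sense members of the family.

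The precursor of miR393e, whose family acts on the auxin receptors TIR1 and AFB, rose in 1-MCP vs Control. Its log2 ratio was 0.99 on array A and 1.18 on array B, a mean of 1.09 ± 0.13 (SD, n = 2) that passed the 1% test (adjusted p = 0.227). Control was not well above background on either of these arrays. Taken on the mean of both arrays, the level in 1-MCP was at least 2.13-fold higher. Such a bound sets the bright group against the higher of the dim probe's own signal and the lowest signal of any probe well above background on that array. Here the bound came out equal to the fold of the mean ratio. It does not cover the spread between arrays, and array A alone lay below it. With the scanner's own processed signals the log2 ratio was 3.08, and with median centring in place of loess the value missed the 1% test.

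Across extracts the log2 intensity of miR393e was 6.28 and 6.24 in Control A and B, 6.45 and 6.34 in O3, 7.06 and 7.28 in 1-MCP, and 7.23 and 6.85 in 1-MCP+O3. The 4 extracts with 1-MCP were again above the 4 without. The probe was above background in 6 of 6 channels with 1-MCP and in 4 of 10 without. In 1-MCP+O3 vs O3 the ratios were 0.79 and 0.62 (mean 0.70 ± 0.12, adjusted p = 0.532), and in 1-MCP+O3 vs Control they were 0.62 and 0.49 (mean 0.55 ± 0.09, adjusted p = 0.517), both within 5% but not 1%. O3 vs Control gave 0.28 and 0.01 (adjusted p = 1). The other sense members of the family, 2 probes, were dark, as was the other strand of all 3.

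In the miR166 family 4 sense members, miR166b, miR166d, miR166i and miR166j, had positive ratios on both arrays of all 3 comparisons in which the first group had 1-MCP and the second did not. They were singled out after their values had been seen. Of the 10 sense members, 2 had a negative mean in 1-MCP vs Control. In 1-MCP+O3 vs Control and in 1-MCP+O3 vs O3 it was 4 each. Probes miR166d and miR166i were above background in 6 of 6 channels of 1-MCP-treated extracts and in 0 of 10 channels of the others, in 3 Cy3 and 3 Cy5 channels each. This on and off pattern was found in 2 of the 144 sense members and in 83 of the 59352 sense probes of the array (0.14%). As the 2 probes were singled out by their values, this share does not test them. The channels include repeat hybridizations of the same extracts. On the other strand miR166d was above background in 2 of 6 channels with 1-MCP and 3 of 10 without, and miR166i in 2 of 6 and 5 of 10.

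The log2 intensity of miR166d ranged from 6.79 to 7.11 in the 4 extracts with 1-MCP and from 5.91 to 6.30 in the 4 without. For miR166i the ranges were 6.65 to 6.99 and 5.93 to 6.24. For miR166j, which was above background in 13 channels, they were 6.90 to 7.45 and 6.49 to 6.74. None of the 3 overlapped between fruit with and without 1-MCP. The ranges of miR166b, above background in 5 channels of Cy3 only, were 6.38 to 6.79 and 6.16 to 6.44 and did overlap.

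In 1-MCP vs Control the ratios on arrays A and B were 0.62 and 1.24 for miR166d (adjusted p = 0.448), 0.70 and 1.09 for miR166i (adjusted p = 0.341) and 0.55 and 0.77 for miR166j (adjusted p = 0.347), and all 3 passed at 5%. For miR166d and miR166i Control stayed near background on both arrays, whereas for miR166j it was above background on both. On the mean of both arrays, 1-MCP was at least 1.90-fold higher for miR166d and at least 1.85-fold higher for miR166i. These bounds were at or just below the folds of the mean ratios, 1.90 and 1.86, and array A lay below each bound. In 1-MCP+O3 vs O3 the ratios were 0.58 and 0.90 for miR166d, 0.31 and 0.87 for miR166i and 0.42 and 0.83 for miR166j, of which the first and the last passed at 5%. On the mean of both arrays the bounds against the O3 extracts, also not well above background, were 1.67-fold for miR166d and 1.50-fold for miR166i. Both bounds equalled the folds of the mean ratios, and array A again lay below each bound. None of these values passed the 1% test in the fit as reported. With the processed signals miR166d and miR166i passed it in both of these comparisons, and with an intensity trend and robust options miR166d and miR166i passed in both and miR166j in 1-MCP+O3 vs O3. With O3 alone their mean ratios were 0.06, -0.07 and -0.09.

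A fit of all 8 arrays together with a dye term had more residual degrees of freedom, but took repeat hybridizations of an extract as independent, which makes its p-values too small. In that fit miR166d, miR166i, miR166j, miR159e and miR393e all passed the 1% test in 1-MCP vs Control, 1-MCP+O3 vs Control and 1-MCP+O3 vs O3. Their smallest adjusted p was 0.00351 (miR159e in 1-MCP+O3 vs Control) and their largest 0.0559 (miR166j in 1-MCP vs Control). The same fit passed 11.8%, 14.7% and 14.6% of all sense probes in these comparisons, so that passing it was common.

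**Figure D2:**
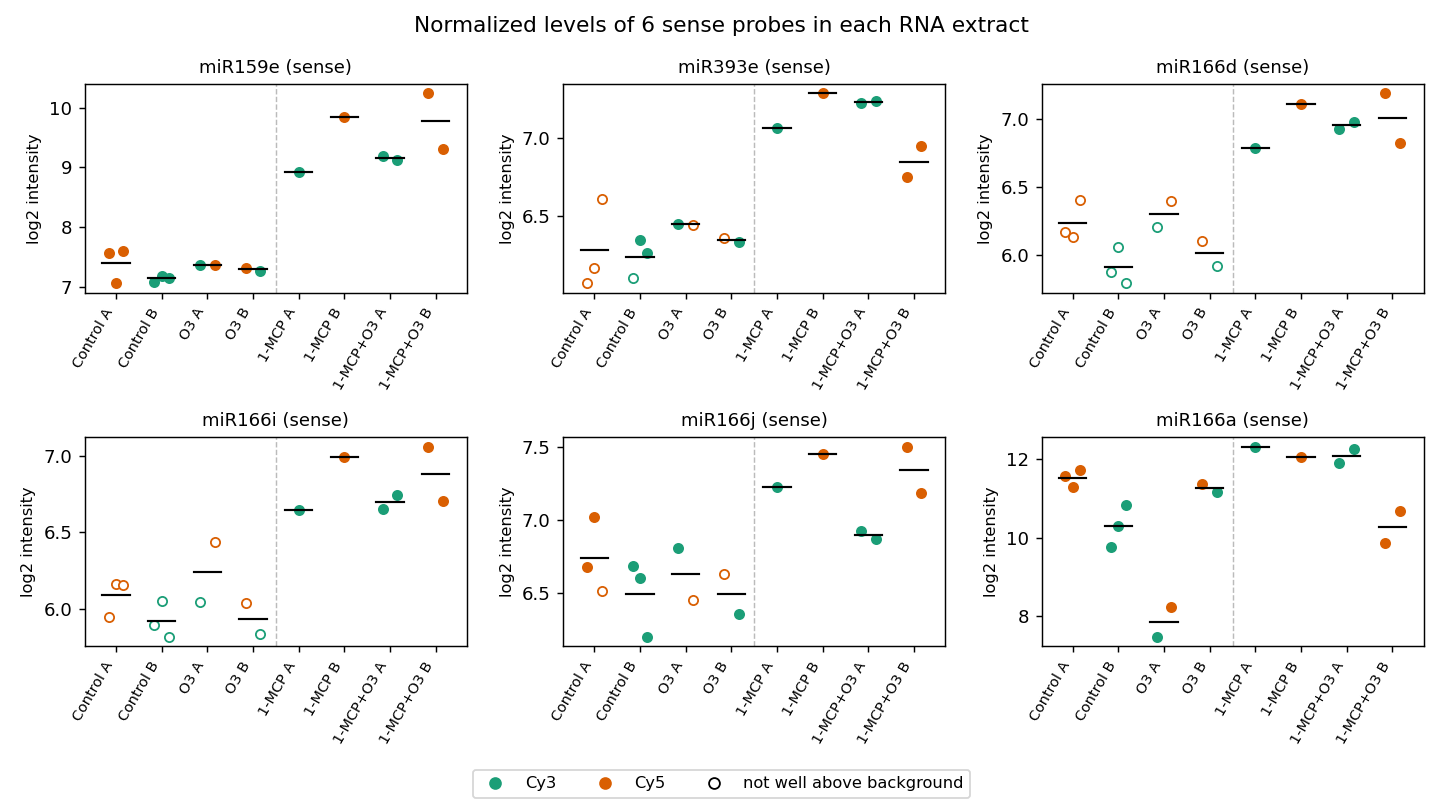
Normalized log2 intensity (y axis) of 6 sense precursor probes in each of the 8 RNA extracts (x axis), with the extracts without 1-MCP left of the dashed line. Points are single hybridizations in Cy3 or Cy5, open where not well above background, and lines are extract means. Here miR159e, miR393e, miR166d, miR166i and miR166j lie higher in all 4 extracts with 1-MCP, and miR166a is low in extract O3 A alone.

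The signal of miR166a differed widely between the 2 extracts of O3 fruit. Its log2 intensity was 7.85 in O3 A and between 10.27 and 12.32 in the other 7 extracts. The low value was seen on both arrays that held O3 A, once in each dye. The deposited median signal of O3 A was 180 in Cy3 over a local background of 29, and 153 in Cy5 over 77, whereas O3 B gave 1560 in Cy5 and 3608 in Cy3.

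The ratios of miR166a were therefore far apart within a comparison. O3 vs Control gave -3.82 on array A and 1.07 on array B, and 1-MCP+O3 vs O3 gave 4.03 and -0.49. In 1-MCP vs Control they were 0.75 and 2.29, and in 1-MCP+O3 vs Control 0.18 and -0.97. In the fit as reported no comparison passed the test at 5%, and the adjusted p ran from 0.614 to 1. The 1% test was passed in 1-MCP vs Control with the processed signals, with median centring and with an intensity trend and robust options, and in O3 vs Control and 1-MCP+O3 vs O3 with the processed signals. Of the 24874 sense probes above background in all channels and measured in both O3 extracts, 6 (0.0241%), miR166a included, had a difference of O3 A from O3 B as low as its -3.42.

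**Figure D3:**
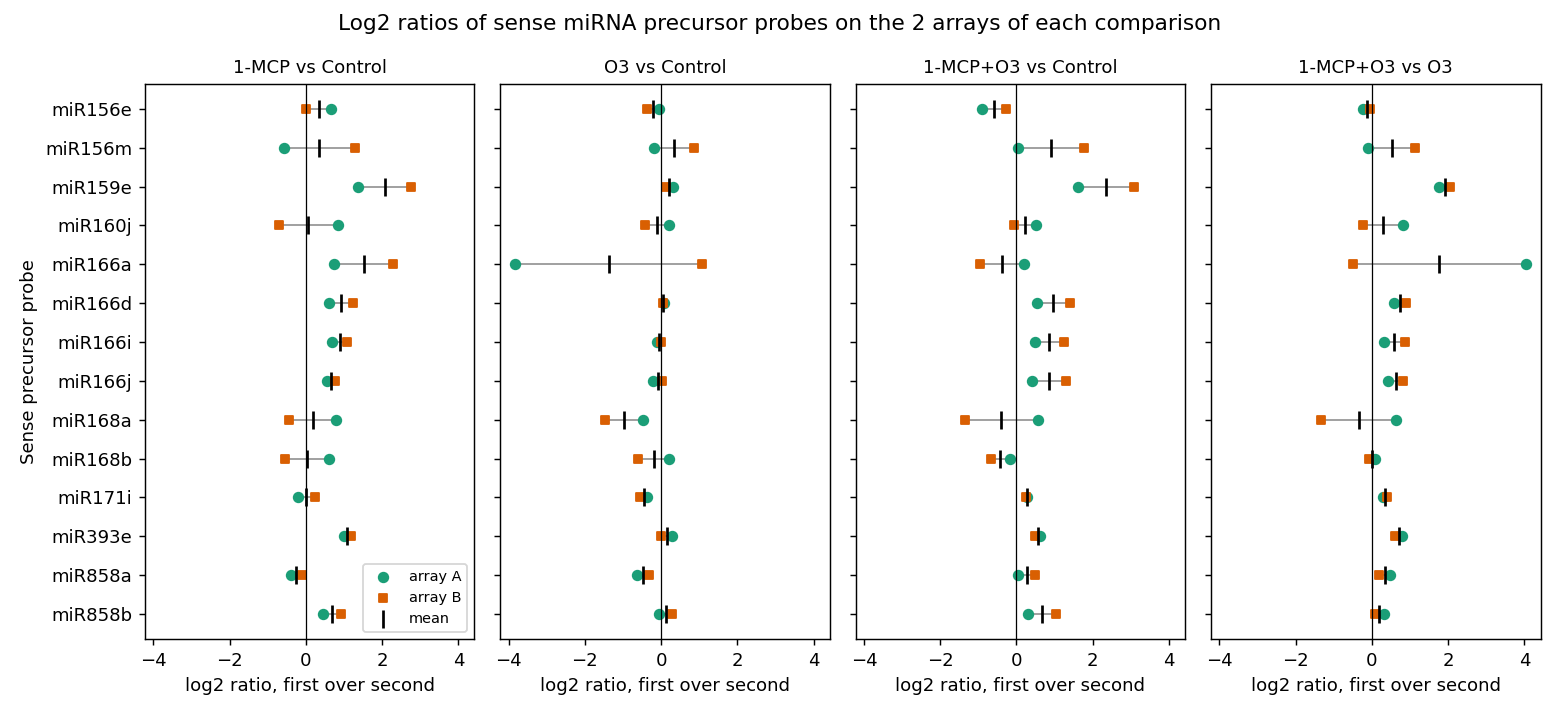
Log2 ratios (x axis, first-named over second-named group) of 14 sense precursor probes (y axis) on array A, on array B and as their mean, in each of the 4 comparisons. The 2 arrays lie close for miR393e in 1-MCP vs Control (0.99 and 1.18) and for miR159e in 1-MCP+O3 vs O3 (1.77 and 2.04), and farthest apart for miR166a in O3 vs Control and 1-MCP+O3 vs O3.

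The remaining bright sense probes passed the 1% test in no comparison in the fit as reported. In the miR858 family miR858b had ratios of 0.45 and 0.93 in 1-MCP vs Control (adjusted p = 0.493), 0.29 and 1.05 in 1-MCP+O3 vs Control and 0.32 and 0.09 in 1-MCP+O3 vs O3. Its extracts with 1-MCP ranged from 8.64 to 9.44 in log2 intensity and those without from 8.29 to 8.57, with no overlap. The other member, miR858a, had ratios of -0.63 and -0.31 in O3 vs Control (adjusted p = 0.803) and of 0.49 and 0.19 in 1-MCP+O3 vs O3 (adjusted p = 1). Both members of the family were thus detected throughout, and their means lay on opposite sides of 0 in 1-MCP vs Control (0.69 and -0.25).

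The AGO1-directed precursor miR168a changed sign between arrays in 3 comparisons. Its ratios were 0.80 and -0.44 in 1-MCP vs Control, 0.57 and -1.35 in 1-MCP+O3 vs Control and 0.64 and -1.32 in 1-MCP+O3 vs O3. Only O3 vs Control gave the same sign on both, with -0.47 and -1.48 (adjusted p = 0.893). The related miR168b had 0.60 and -0.55 in 1-MCP vs Control and -0.17 and -0.67 in 1-MCP+O3 vs Control. All 3 sense members of the family had a positive mean in 1-MCP vs Control, from 0.02 to 0.18, within the spread between arrays.

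In the miR171 family, miR171i had ratios of -0.37 and -0.56 in O3 vs Control (adjusted p = 0.722) and of 0.29 and 0.40 in 1-MCP+O3 vs O3 (adjusted p = 0.82). In 1-MCP vs Control they were -0.21 and 0.24. In the miR160 family miR160j had opposite signs on the 2 arrays of every comparison, for example 0.85 and -0.71 in 1-MCP vs Control. In the miR156 family, miR156m had -0.57 and 1.28 in 1-MCP vs Control and 0.05 and 1.77 in 1-MCP+O3 vs Control. For miR156e the values were 0.67 and 0.02, and -0.90 and -0.29, in the same comparisons. Repeat hybridizations of Control A alone spread more widely in log2 intensity for miR156e than the 8 extract means, which ran from 7.19 to 8.05.

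Both miR162 precursors, directed at DCL1, were dim. In 1-MCP vs Control the ratios of miR162a were 0.71 and 0.31 (adjusted p = 0.588). In 1-MCP+O3 vs Control they were 0.52 and 0.32 for miR162a (adjusted p = 0.665) and 0.68 and 0.29 for miR162b (adjusted p = 0.726). Control was near background on both arrays of each. On array B the group with 1-MCP was near background as well, so that no fold is given. For miR162b both groups of 1-MCP vs Control were near background. The probes were above background in 5 channels and 1 channel, all in Cy3, and never in Control. For miR162a these were 3 of 6 channels with 1-MCP and 2 of 4 channels of O3 fruit. They were chosen after their values had been seen.

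The separation of extracts by treatment was counted over the whole array with the mean of each extract over its hybridizations, a count added after the values had been seen. In 8 of the 144 sense members (5.56%) all 4 extracts with 1-MCP lay above all 4 without, where 7.06% of all sense probes did so. These were miR159e, miR393e, miR166d, miR166i, miR166j, miR162a, miR162b and miR858b. The reverse order was found in 2 members (1.39%) against 6.07% of all sense probes, 1 of them, miR408a, detected in a single channel. For O3 the extracts lay above the others in 3 members (2.08%) against 2.53% of all sense probes, and below in 4 members (2.78%), all dark, against 1.96%. The share of members that separated upwards with 1-MCP was thus close to that of the array.

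Whether the ratio for 1-MCP differed between storage in O3 and in plain air was tested as 1-MCP+O3 vs O3 minus 1-MCP vs Control. No sense member passed the 1% test in limma (0 of 144, against 0.44% of all sense probes, and 0 of 22 above background on the arrays of both comparisons, against 0.691%). At an unadjusted p under 0.05 there was 1, miR858a, against 2.44% of all sense probes, with a difference of 0.59 ± 0.18 (SE). With the scanner's processed signals 1 member passed the 1% test. The difference was -0.39 ± 0.14 for miR393e and -0.16 ± 0.54 for miR159e. For miR166d, miR166i and miR166j it was -0.19, -0.31 and -0.04, with standard errors of 0.28, 0.28 and 0.20. These errors do not allow the ratios to be called alike.

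On the other strand 36 of 145 probes (24.8%) were above background in some channel and 3 (2.07%) in all 16, against 50.2% and 13.5% of the 59388 other-strand probes of the array. The 3 were miR156h, miR160i and miR171k. Their own sense probes were above background in 1 channel, in none and in none, so that the strand read by the bright probe was not the one named sense. Of the 144 precursors with both probes, 17 were detected on both strands, 33 on the sense strand only, 18 on the other strand only and 76 on neither. Both strands were above background in 8 or more channels for miR156j, miR160j and miR535a.

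The other strand of miR171k fell in both comparisons of O3-stored fruit with Control. Its log2 ratio was -0.69 and -0.80 in O3 vs Control, a mean of -0.74 ± 0.08 (SD, n = 2; adjusted p = 0.613), and -0.71 and -1.03 in 1-MCP+O3 vs Control, a mean of -0.87 ± 0.23 (adjusted p = 0.449). It was the only member of the other strand to pass the 1% test in either, where 0.574% and 0.77% of all other-strand probes passed. In 1-MCP vs Control the ratios were -0.12 and -0.24, and in 1-MCP+O3 vs O3 they were -0.33 and -1.10 (adjusted p = 0.979). No other-strand member passed in these comparisons at 1% (1 in each at 5%), against 1.31% and 0.662% of all other-strand probes.

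The 4 extracts of O3-stored fruit ran from 12.84 to 13.35 in log2 intensity of miR171k and the 4 others from 13.50 to 13.71, with no overlap. On the other strand 4 of 145 members (2.76%) separated in this way, against 1.66% of all other-strand probes. Only 2 of the 4 were above background in any channel. The level in the O3 fruit differed by array. Extract O3 A read 13.09 on the array with Control and 13.60 on the array with 1-MCP+O3, and O3 B read 12.66 and 13.88. The 6 Control hybridizations ran from 13.45 to 13.94 and the 4 of 1-MCP+O3 from 12.78 to 13.28. On the arrays with 1-MCP+O3, O3 A and O3 B thus lay within the Control range, whereas 1-MCP+O3 was below Control in every hybridization. Both values missed the 1% test with an intensity trend and robust options in limma, with dim probes left out, with median centring, with the processed signals and without either array.

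The other strand of miR156h was higher with 1-MCP. Its extracts read 8.84 and 8.44 in Control, 8.31 and 8.30 in O3, 9.39 and 9.88 in 1-MCP and 9.02 and 9.25 in 1-MCP+O3, with no overlap between fruit with and without 1-MCP. This order was found in 7 of 145 other-strand members (4.83%), against 2.78% of all other-strand probes. Only 4 of the 7 were above background in any channel. The ratios were 0.81 and 0.64 in 1-MCP+O3 vs O3 (adjusted p = 0.523) and 0.44 and 1.53 in 1-MCP vs Control (adjusted p = 0.67). In O3 vs Control they were -0.39 and -0.31 (adjusted p = 0.763). The other strand of miR160i had -0.28 and -0.53 in O3 vs Control (adjusted p = 0.809) and -0.22 and -0.36 in 1-MCP+O3 vs O3 (adjusted p = 0.948). None of these values passed the 1% test.

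**Figure D4:**
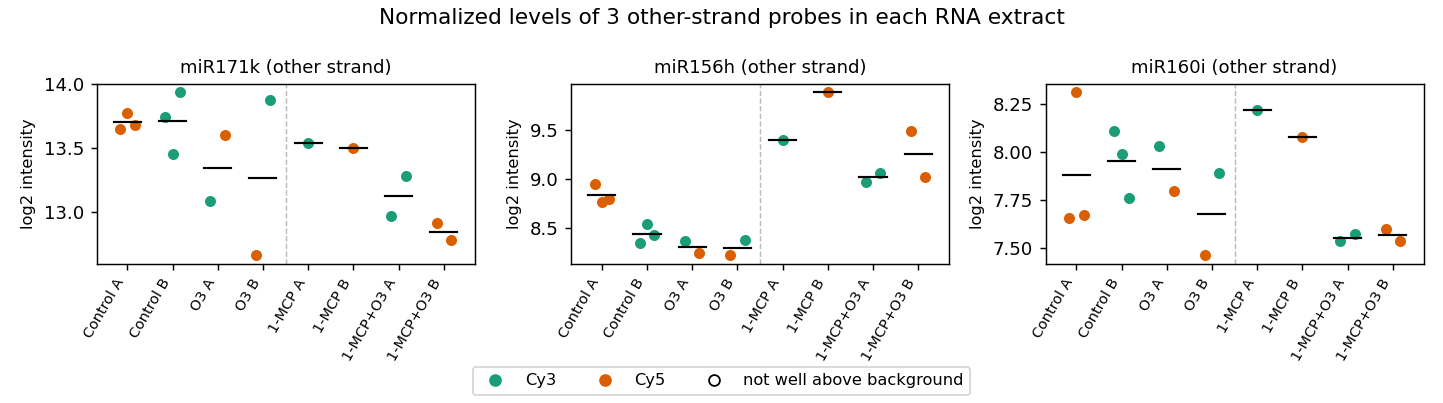
Normalized log2 intensity (y axis) of the 3 other-strand probes above background in all 16 channels, in each of the 8 RNA extracts (x axis), with the extracts without 1-MCP left of the dashed line. Points are single hybridizations in Cy3 or Cy5 and lines are extract means. Here miR156h is higher in the 4 extracts with 1-MCP, and the O3 extracts of miR171k differ by array, from 12.66 to 13.88.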

How the data were processed

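The authors scanned 8 two-colour arrays and extracted the spots with Agilent Feature Extraction 11.5.1.1. The deposited median intensities of spot and surrounding background in both dyes were used as they stood. The deposited processed intensity, background-subtracted and dye-normalized by that software per the file headers, served as an alternative. Outlier spots were dropped. The normexp method, with 50 added as an offset, removed background, log2 ratios were normalized by loess within arrays, and levels were taken after Aquantile scaling. The 2 arrays of each comparison, which leave 1 residual degree of freedom, were fitted with limma 3.58.1 (lmFit and eBayes) in R 4.3.3 over all 133709 probes; called means an unadjusted p under 0.01, the threshold of the methods, with Benjamini-Hochberg values over all probes. The offset draws ratios of dim probes toward 0, and precision is limited by having 2 arrays per comparison. The limma step alone was tested on simulated log2 ratios, with independent normal noise and the same shift on both arrays. These held no dye or hybridization effects.

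The members and lists were chosen with earlier results of these data known. The names given are sense members that passed the 1% test and were above background, the other strand of each, the brightest sense member of each family with one above background in all channels, and miR393e; others are named as chosen after seeing their values. That _r marks the sense strand follows the naming of probes which the study's tables call sense. The array itself pairs extracts of the same letter. The deviations of same-lettered extracts from their group means correlated at -0.51, 0.25, -0.50 and -0.37 in the order of the comparisons, and the letter cannot be told apart from the dye. Genes of the microRNA pathway were not analysed here, since the reference table pairs none of the array's gene identifiers with a symbol. Precursor positions were not used here. The alternatives are the settings named in the closing section.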

Additional observations from a re-analysis of the deposited data

How the results depend on the processing

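The counts of sense members that passed the 1% test, 1, 0, 0 and 1 in the order 1-MCP vs Control, O3 vs Control, 1-MCP+O3 vs Control and 1-MCP+O3 vs O3, depended on the fit. With the processed signals they were 9, 1, 8 and 5 (7.12%, 2.49%, 4.14% and 4.4% of all sense probes), with an intensity trend and robust options 7, 1, 12 and 6 (5.82%, 2.74%, 4.42% and 3.73%), and with the spread pooled over 4 comparisons 5, 1, 7 and 2 (6%, 2.39%, 5.41% and 5.48%). The fit with a dye term gave 9, 0, 11 and 11 (11.8%, 7.93%, 14.7% and 14.6%). With no replicate block, that is without pairing the 2 channels of an array, they were 6, 1, 1 and 2 (6.8%, 2.8%, 3.69% and 4.61%). Median centring gave 2, 0, 1 and 0 (1.37%, 0.13%, 0.699% and 0.706%). With dim probes left out, 5.71%, 2.55%, 3.63% and 3.02% of the sense probes kept passed, and the member counts were 2, 0, 1 and 1. Without replicate A or B they ranged from 2 to 3, 0 to 0, 1 to 5 and 0 to 1, in a fit where the lone array is assumed to vary like the other comparisons. An unadjusted p under 0.05 gave 8, 2, 6 and 5 and an adjusted p under 0.05 gave 0 in each in the fit as reported. The adjusted counts were 6, 0, 4 and 4 with the processed signals (3092, 360, 1276 and 1543 of all sense probes). With the trend and robust options they were 5, 0, 6 and 0 (2022, 301, 1376 and 672 of all sense probes). The dye term gave 6, 0, 9 and 8 (4545, 1501, 5979 and 6294), and the pooled spread 1, 0, 0 and 0 (1173, 0, 625 and 756). The other alternatives that kept both arrays gave 0, although no replicate block passed 369 of all sense probes in 1-MCP vs Control. For the difference of the 1-MCP ratios the count of 0 was 1 with the processed signals and 1 at an unadjusted p under 0.05. No background correction, scaling between arrays and outlier spots kept left all 5 counts within 1.5 times. The causes were not tested. Medians of all sense probes moved by less than 0.1 on the log2 scale.

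No mean ratio of the named probes with an unadjusted p under 0.05 changed sign under any alternative run. The call of miR393e in 1-MCP vs Control was lost with median centring, and its values ran from 0.99 to 3.08 over the alternatives. The call of miR159e in 1-MCP+O3 vs O3 was lost with median centring and without either array, with values from 1.77 to 2.80. Calls were gained by miR159e in 8 of 12 alternatives in 1-MCP vs Control (1.37 to 2.77) and in 8 of 12 in 1-MCP+O3 vs Control (1.60 to 3.09). For miR166d (0.62 to 3.46) and miR166i (0.70 to 3.57) in 1-MCP vs Control it was 5 of 12 each, with the highest values from the processed signals. In 1-MCP+O3 vs O3 miR393e gained them in 6 of 12 (0.60 to 2.57). The 2 calls of miR171k were lost in 7 and 6 of 12 alternatives. Of the 144 sense members, 94 were dark in every channel, and their ratios say little about the transcripts.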
